A study of Mus musculus with 2 samples.

Results

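The genes described here are 46 mouse genes that type I interferon switches on, chosen by name from a list of interferon-stimulated genes and not by their values in these cells. All 46 were present among the 33696 mouse gene features of the deposited matrix. They were followed in CD45+ cells sorted from MC38 tumours, a mouse colon carcinoma line grown subcutaneously in mice with human Fcγ receptors, 4 days after treatment. The agents were antibodies to mouse GITR, a co-stimulatory receptor of T cells, with a human IgG1 constant part in different Fc forms. They were given in 2 injections of 100 µg per mouse, and controls received PBS. All mice shared the human receptor background and the tumour, and the sources used here give no age for them. The annotation deposited by the authors names 4 treatments. Untreated mice received no antibody, N297A is called an agonist that is Fc-null, GA-aFuc an agonist that is Fc-enhanced, and GITR/Syn GA-aFuc a non-agonist that is Fc-enhanced. The design has 3 mice per treatment over 2 libraries. The matrix of the library analysed here holds 6 of them: 1 Untreated, 1 N297A, 2 GA-aFuc and 2 GITR/Syn GA-aFuc mice.

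Type I interferons bind the receptor chains IFNAR1 and IFNAR2, which activate a complex holding the factors STAT2 and IRF9. That complex binds interferon-stimulated response elements in the promoters of its target genes. The products of those genes bind foreign RNA, block viral replication, modify proteins or feed back on the signal itself. In tumours the programme is known from monocytes, macrophages and dendritic cells, and in lymphocytes it accompanies activation.

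The sequence feature by which these genes are known was looked up first. RefSeq promoter windows (build GRCm38.p6, 250 bases before to 50 after the gene start) were found for 35 of the 46 genes, and not for Usp18, Oas2, Mx1, Mx2, Zbp1, Dhx58, Parp9, Parp14, Ifi204, Ifi27l2a and Rtp4. The motif searched was GAAA, any 2 bases, GAAA, on either strand, where the other strand reads as TTTC, any 2 bases, TTTC; overlapping matches were kept. Counting a gene if any of its windows held the motif, it was present in 18 of the 35 genes, or 51.4%. Over all genes with a window it was present in 1079 of 27025, or 3.99%. With 1 mismatch outside the free positions these shares were 94.3% and 38.9%. Several genes that are prominent below have windows without an exact match, among them Cmpk2, Ifit2, Isg20, Oasl2 and Ifi44. The stretches shown are those of selected genes that hold the motif, written 5′ to 3′ on the gene's strand with the motif in capitals. Ifit1 (chr19:34640765-34640833, plus strand), Ifit3 (chr19:34583353-34583436, plus strand) and Ifit3b (chr19:34607749-34607832, plus strand) encode binders of foreign RNA. Isg15 (chr4:156200855-156200916, minus strand) encodes the ubiquitin-like modifier ISG15, Oas1a (chr5:120907526-120907565, minus strand) a sensor of double-stranded RNA, and Rsad2 (chr12:26456543-26456592, minus strand) the antiviral enzyme viperin. Trim30a (chr7:104465200-104465249, minus strand) and Stat2 (chr10:128270256-128270305, plus strand) encode a TRIM protein and a factor of the signal itself.
Ifit1: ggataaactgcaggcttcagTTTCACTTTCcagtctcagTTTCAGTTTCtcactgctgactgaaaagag
Ifit3: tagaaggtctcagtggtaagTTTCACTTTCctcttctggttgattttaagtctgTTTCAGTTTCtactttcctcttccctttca
Ifit3b: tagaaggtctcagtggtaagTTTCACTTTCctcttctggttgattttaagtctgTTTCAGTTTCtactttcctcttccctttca
Isg15: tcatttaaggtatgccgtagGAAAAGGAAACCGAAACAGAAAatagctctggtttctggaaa
Oas1a: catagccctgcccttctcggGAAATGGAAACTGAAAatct
Rsad2: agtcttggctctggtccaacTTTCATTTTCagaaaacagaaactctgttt
Trim30a: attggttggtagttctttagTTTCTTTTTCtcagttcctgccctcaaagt
Stat2: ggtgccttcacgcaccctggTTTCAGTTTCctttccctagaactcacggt
The printed stretches of Ifit3 and Ifit3b are the same letter for letter. The Isg15 stretch holds 3 overlapping matches, and the last match ends 56 bases before the gene start, against 4 bases in Oas1a, 75 in Ifit1, 26 in Trim30a and 212 in Stat2.

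Herc6 and Oasl1, the genes that passed a treatment test below, have windows without an exact match. The 60 bases just before their starts (Herc6 chr6:57580932-57580991, plus strand; Oasl1 chr5:114923180-114923239, plus strand) are given for comparison. The absence says only that these letters are not in this window.
Herc6: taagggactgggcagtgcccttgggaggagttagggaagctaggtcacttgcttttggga
Oasl1: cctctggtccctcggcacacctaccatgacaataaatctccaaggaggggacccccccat

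The library gave 10476 annotated cells of 10 cell types and 58 clusters, both named by the authors. Each mouse contributed 1540 to 1925 cells and 17176544 to 25808043 UMIs (unique molecular identifiers, that is, counted RNA molecules), and the median cell had 12075 UMIs. The most strongly tagging hashtag matched the mouse for all 10476 cells, and 34 barcodes also occurred among the annotated cells of the other library. Levels are CPM, counts per 1e6 UMIs of the named cells in that mouse; the assay counts transcript 3′ ends, so they can be compared between genes without a length correction. Defining markers were present where the names require them. The summed macrophage markers stood at 17269 to 26430 CPM in macrophages, and the summed T cell markers at 5290 to 7528 CPM in CD8 T cells. Monocytes had Ly6c2 at 1730 to 2888 CPM, against 32.8 to 95.5 in macrophages. They also carried macrophage markers, with C1qa at 1346 to 2467 CPM against 3762 to 5934 in macrophages. Apoe stood at 3805 to 6939 CPM in monocytes and 5606 to 9625 in macrophages. GA-aFuc 1 and GITR/Syn GA-aFuc 1 had Xist at 567 and 551 CPM, while the other 4 mice had the Y-linked gene Uty at 55.0 to 71.3 CPM, so 1 mouse of each Fc-enhanced treatment was female. Values in the 6 mice always run in the order Untreated 1, N297A 1, GA-aFuc 1, GA-aFuc 2, GITR/Syn GA-aFuc 1 and GITR/Syn GA-aFuc 2. Nothing in the labels ties a mouse of 1 treatment to a mouse of another.

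The programme was highest in monocytes and lowest in natural killer (NK) cells. The summed level of the 46 genes was 17145 ± 2152 CPM in monocytes (mean ± SD, n = 6 mice), 13049 ± 1185 in cDC2, the conventional dendritic cells that present to CD4 T cells, and 12252 ± 1164 in macrophages. Plasmacytoid dendritic cells (pDC) stood at 12167 ± 1172 CPM on 27 cells and CD4 T cells at 12120 ± 3289 CPM on 64 cells. Lower levels were found in mregDC, mature dendritic cells, at 8089 ± 2479 CPM, in cDC1 at 7590 ± 1823 CPM, in CD8 T cells at 7563 ± 1236 CPM and in NK cells at 3423 ± 790 CPM. The 24 Tregs gave 3142 to 35991 CPM over the mice and are too few to rank. The lowest monocyte value, 14911 CPM, lay above every mouse of the other ranked types except a single CD4 T cell value of 18020 CPM. The neighbours cDC2, macrophages, pDC and CD4 T cells did not differ beyond their spread, nor did mregDC, cDC1 and CD8 T cells. Barcodes with 1 to 100 UMIs, which hold mostly free RNA, gave 11806 CPM, so free RNA carried these genes at more than the NK level. The cell types were built by the authors from the same cells, and the levels are therefore a description without a test.

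**Figure D1:**
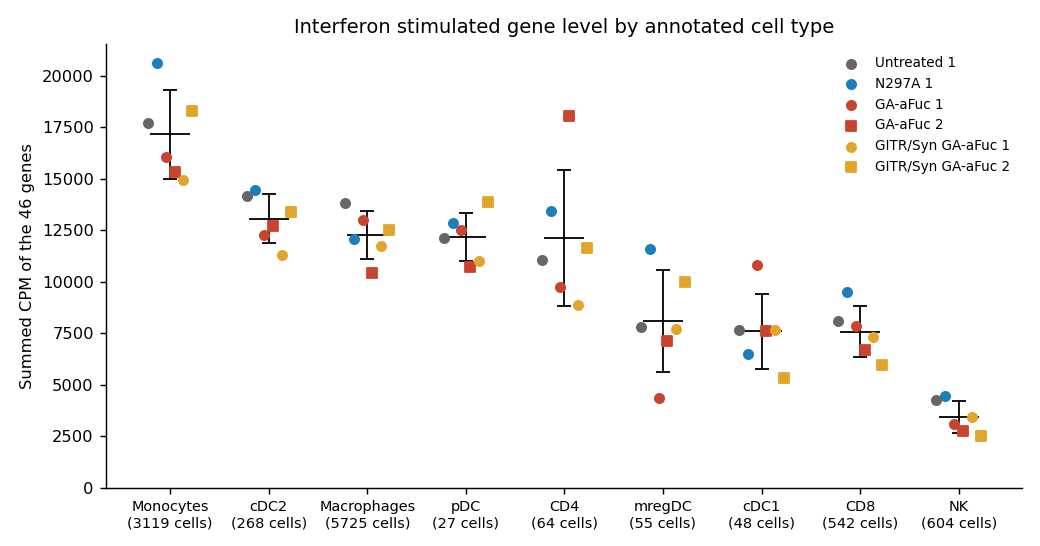
Summed level of the 46 interferon-stimulated genes (CPM) in each mouse for 9 cell types, with the mean and SD over 6 mice. Monocytes average 17145 CPM and NK cells 3423 CPM, and the mice of 1 type spread less than these types differ.

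Single genes followed that order with exceptions. Of 5 well-filled types (monocytes, macrophages, cDC2, CD8 T cells and NK cells), monocytes had the highest mean of 36 of the 46 genes, cDC2 of 5, macrophages of 3 and CD8 T cells of 2. Ifi27l2a, a small hydrophobic protein, was the most abundant: with Bst2 and Ms4a4c it held 37.3% of all UMIs of the 46 genes. Ifi27l2a averaged 3905 ± 662 CPM in monocytes and 3055 ± 643 in CD8 T cells but 210.0 ± 45.6 in NK cells. Bst2, the tetherin that holds budding virus at the membrane, was highest in pDC, where it is a known marker, at 3477 ± 659 CPM against 922 ± 189 in monocytes. Ifi205, a nuclear DNA-binding protein of the PYHIN family, averaged 708 ± 119 CPM in cDC1 and 401 ± 82.1 in cDC2, against 45.4 ± 8.77 in macrophages and 1.46 ± 1.28 in NK cells. Isg20, an exonuclease, was at 219 ± 22.9 CPM in CD8 T cells and 136 ± 18.6 in NK cells, against 43.3 ± 9.10 in macrophages. Rsad2 was at 641 ± 170 CPM in monocytes, 243 ± 12.8 in macrophages and 41.98 ± 15.4 in NK cells. Leaving out the 3 most abundant genes lowered the monocyte level to 11317 ± 1133 CPM and that of pDC to 5375 ± 956 CPM.

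Within monocytes and macrophages, 4 author clusters carried the programme far above the rest. Clusters 49, 21 and 27 are monocytes with 88, 234 and 178 cells, and cluster 3 is 361 macrophages. Their summed levels were 49440, 34467, 28446 and 26954 CPM. Each held cells of all 6 mice, and the lowest mouse was at 41628, 28882, 23828 and 25741 CPM. At the other end stood the NK clusters 58, 20 and 48 at 2316, 2872 and 3403 CPM. These 4 clusters were picked for their high summed level of the same interferon-stimulated genes. That choice by itself favours many of the genes lying above the rest. The clusters were also formed by the authors from these cells. The genes that follow therefore describe the clusters and were not tested, and no share of all genes is set beside their counts.

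**Figure D2:**
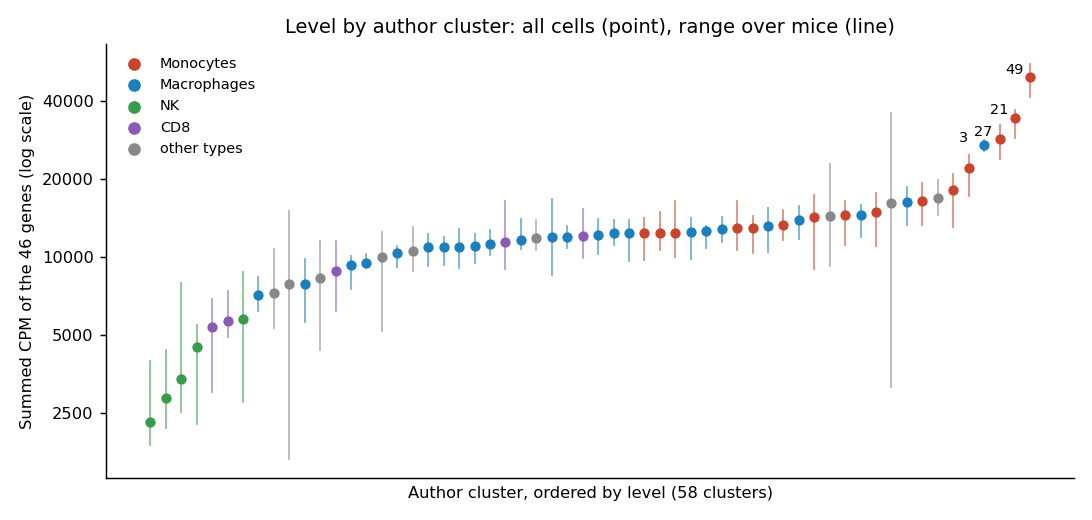
Summed level of the 46 genes (CPM, log axis) in each of the 58 author clusters, with bars for the lowest and highest mouse. Clusters 49, 21, 27 and 3 lie at 26954 CPM or above, and the NK clusters form the low end.

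In cluster 49, 41 of the 46 genes were more than 2 times the level of the other monocytes, and 41 were above it in all 6 mice; the median ratio was 3.07. Rsad2 reached 5916 CPM against 283 CPM, a ratio of 20.9, and Cmpk2, its neighbour on the chromosome and a mitochondrial nucleotide kinase, had the highest ratio at 24.3. The IFIT genes followed with 13.3 for Ifit3b, 12.1 for Ifit1 and 10.6 for both Ifit2 and Ifit3. Mx1, a GTPase that blocks viral nucleocapsids, stood at 9.93, Isg20 at 8.18, Oasl1 at 7.16, Isg15 at 6.17 and its ligase gene Herc6 at 5.05. The lowest ratios were those of Lgals3bp, a secreted glycoprotein, at 1.14, Ifi44 at 1.20, Bst2 at 1.38, Ifi27l2a at 1.57 and Parp9 at 1.80.

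Cluster 21 had a median ratio of 2.48, with 37 genes above 2 and 44 above the other monocytes in every mouse; Ifit3b led at 10.3. Macrophage cluster 3 was like it in size, with a median of 2.53 over other macrophages, 37 genes above 2 and 44 above the rest in every mouse. There Rsad2 led at 11.001, or 1665 CPM against 151 CPM, followed by Cmpk2 at 9.72 and Ifit3b at 8.30. Cluster 27 differed in its make-up: Cmpk2 stood at 11.3 and Rsad2 at 7.94, but Bst2, Lgals3bp and Ifi44 were below the other monocytes at 0.504, 0.673 and 0.705. Irf7, the factor that amplifies interferon production, was at 2.94 in cluster 49, 1.90 in cluster 21, 1.92 in cluster 3 and 1.01 in cluster 27. Of the genes outside the list, Ifit1bl1 had ratios of 17.6 in cluster 49 and 10.99 in cluster 21, and the chemokine gene Cxcl10 7.29 in cluster 27 and 4.90 in cluster 3.

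**Figure D3:**
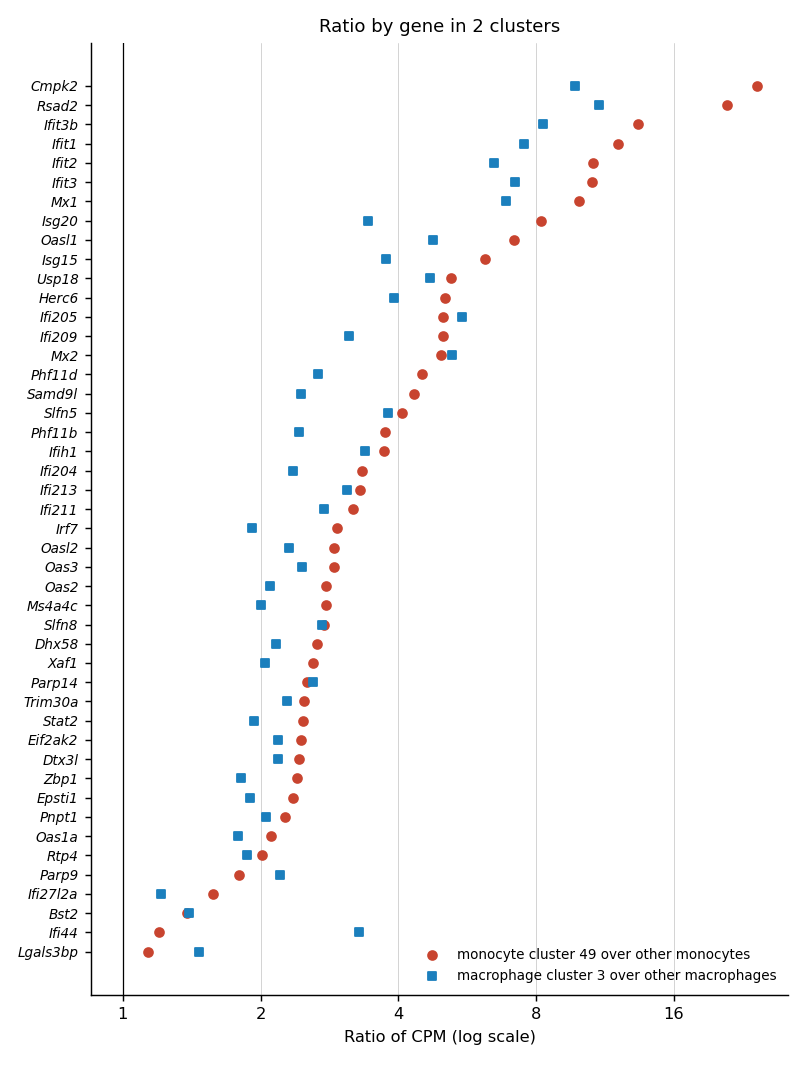
Ratio of CPM (log axis) for each of the 46 genes in monocyte cluster 49 over other monocytes and in macrophage cluster 3 over other macrophages. Cmpk2 and Rsad2 lie at the top with 24.3 and 20.9 in cluster 49, and Lgals3bp lies at 1.14.

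The clusters stayed apart at equal depth. With every cell thinned to 3000 UMIs, the median cell of clusters 49, 21, 27 and 3 held 144, 103, 77 and 80 UMIs of these genes. Other monocytes held 41, other macrophages 32, cDC2 35, CD8 T cells 21 and NK cells 8. Before thinning the medians were 359, 339, 196.5 and 369 UMIs in the 4 clusters, 129 in other monocytes, 154 in other macrophages and 27 in NK cells. Cells shallower than the thinning depth were left out, 63 of the other monocytes, 36 of the other macrophages and 25 NK cells among them. The number of the 46 genes seen in the thinned median cell was 36 in cluster 49, 18 in other monocytes and 6 in NK cells. Of the NK cells, 4, 0.691% of those thinned, held no UMI of any of the genes.

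The ligands themselves were scarcely captured. Ifnb1, which encodes interferon beta, gave 90 UMIs in 26 of 10476 cells, 68 of them in macrophages, 21 in monocytes and 1 in cDC2. All other type I interferon genes together gave 21 UMIs. Most Ifnb1 UMIs were found in cluster 3 (24), cluster 27 (18) and macrophage cluster 9 (25), and none in the cells of clusters 49 and 21. Only 4 monocytes and 24 macrophages held a UMI of any of these ligand genes. Monocyte Ifnb1 stood at 2.85 CPM in GITR/Syn GA-aFuc 2 and at 0 to 0.233 CPM in the other mice. The receptor genes were present in all types. Ifnar1 was at 90.01 CPM in monocytes, 70.1 in macrophages, 72.8 in CD8 T cells and 54.2 in NK cells, and Ifnar2 at 270.0, 212, 43.7 and 56.0 CPM. Irf9, which encodes a factor of the signal, was at 84.8, 75.3, 76.3 and 60.4 CPM in the same order.

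For treatment, counts were summed per mouse within monocytes, macrophages, CD8 T cells, NK cells and all dendritic cells together, and each class was fitted with edgeR over all its genes. There were 6 comparisons, and the threshold was an adjusted p of 0.05. With a single Untreated and a single N297A mouse, the spread comes from the 2 Fc-enhanced pairs alone. The question with most mice behind it was whether the 4 mice given an Fc-enhanced antibody differed from the average of the N297A and the Untreated mouse. There 2 gene and class pairs out of the 46 genes passed, Herc6 and Oasl1, both in NK cells and both lower. Of all gene tests in the 5 classes 0.131% passed, and in NK cells 0.150% of 9329 genes were lower. None of the 46 genes passed in any other comparison, where the share of all tests that passed was 0.0512% for GA-aFuc against Untreated, 0.144% for GA-aFuc against N297A, 0.0493% for GITR/Syn GA-aFuc against GA-aFuc, 0.0228% for GITR/Syn GA-aFuc against Untreated and 0.00569% for N297A against Untreated. DESeq2 passed 1 pair, Herc6 in NK cells in the pooled comparison, and none in the other 5. Comparisons that name the same mouse share its values.

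In NK cells the Fc-enhanced mice were low for most of these genes. All 4 lay below both other mice for 27 of the 43 genes tested, or 62.8%, against 10.0% of all genes. The summed level in NK cells was 4236, 4471, 3099, 2760, 3455 and 2519 CPM. At an unadjusted p under 0.05, 27 of the 43 genes were lower and none higher, against 9.44% of all genes in either direction, and the median log2 fold change of the 43 was -0.56, against 0.02 over all genes. Oas2, Ifi205 and Phf11d had too few counts to be tested in NK cells. Whether fewer cells carried the RNA or each cell held less of it was not tested by treatment.

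Herc6 (ENSMUSG00000029798), the main mouse ligase that attaches ISG15 to proteins, stood at 120.0, 168, 61.8, 45.8, 77.8 and 44.99 CPM. Its 4 Fc-enhanced mice were all below both others, and the log2 fold change was -1.22 ± 0.19 (SE) with an adjusted p of 0.00943. The call held in 13 of 13 alternative fits, with adjusted p from 1.45e-08 to 0.0394. Oasl1 (ENSMUSG00000041827), an OAS-like protein that represses translation of Irf7, stood at 70.6, 83.6, 30.9, 38.4, 34.3 and 19.9 CPM. Its groups did not overlap either, with -1.29 ± 0.23 and an adjusted p of 0.0225. DESeq2 gave no adjusted p for Oasl1, which is therefore not counted as passing or failing there. Over 12 alternative fits its adjusted p ran from 2.18e-05 to 0.116, and the call was lost without GITR/Syn GA-aFuc 2 (-1.14, adjusted p = 0.116). The number of passing gene and class pairs depended on single mice: it was 6 without GA-aFuc 1, 10 without GA-aFuc 2, 11 without GITR/Syn GA-aFuc 1 and 10 without GITR/Syn GA-aFuc 2.

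Further genes of the antiviral group had the same order of mice in NK cells without passing. Trim30a, whose product restrains innate signalling, stood at 289.5, 346, 193, 172, 219 and 166 CPM (-0.70 ± 0.14, adjusted p = 0.0515), and it passed in 8 of 13 alternative fits. Mx1 stood at 71.5, 48.7, 28.1, 27.5, 29.6 and 19.9 CPM (-1.11 ± 0.23, adjusted p = 0.0658). Ifi44, an interferon-induced protein of the cytoplasm, was at 68.0, 64.1, 35.1, 31.1, 33.3 and 24.1 CPM (-1.03 ± 0.22, adjusted p = 0.0736). In each of these 3 the highest Fc-enhanced mouse was below the lower of the other mice. Ifit2 was at 45.02, 52.8, 20.4, 20.1, 26.9 and 12.6 CPM (-1.22 ± 0.26, adjusted p = 0.0786). Oasl2, an OAS-like protein, was at 45.02, 46.3, 18.98, 23.8, 27.8 and 11.5 CPM. Rtp4, a receptor transporter that also restricts viruses, was at 72.4, 67.4, 35.8, 34.8, 46.3 and 27.2 CPM, and these 3 also showed no overlap.

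Other NK genes were less uniform. Ifit1 was at 40.6, 38.2, 18.98, 20.1, 50.01 and 7.32 CPM, with GITR/Syn GA-aFuc 1 above both other mice. Isg15 stood at 177, 178, 116, 91.5, 149 and 59.6 CPM, where the groups were apart but the Fc-enhanced mice spread widely. Usp18, the protease that removes ISG15 and blocks the receptor, was at 122, 126, 73.1, 71.4, 87.1 and 94.2 CPM. Bst2 hardly moved, at 228, 251, 221, 198, 241 and 204 CPM, and Isg20 stood at 116, 131, 135, 137, 170.4 and 126 CPM, with its lowest value in the Untreated mouse. Ifi27l2a was at 240.1, 237, 227, 137, 249 and 169 CPM, without a separation of the groups. Slfn8, a Schlafen family protein, was at 98.9, 88.5, 61.1, 49.4, 51.9 and 49.2 CPM, with no overlap.

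**Figure D4:**
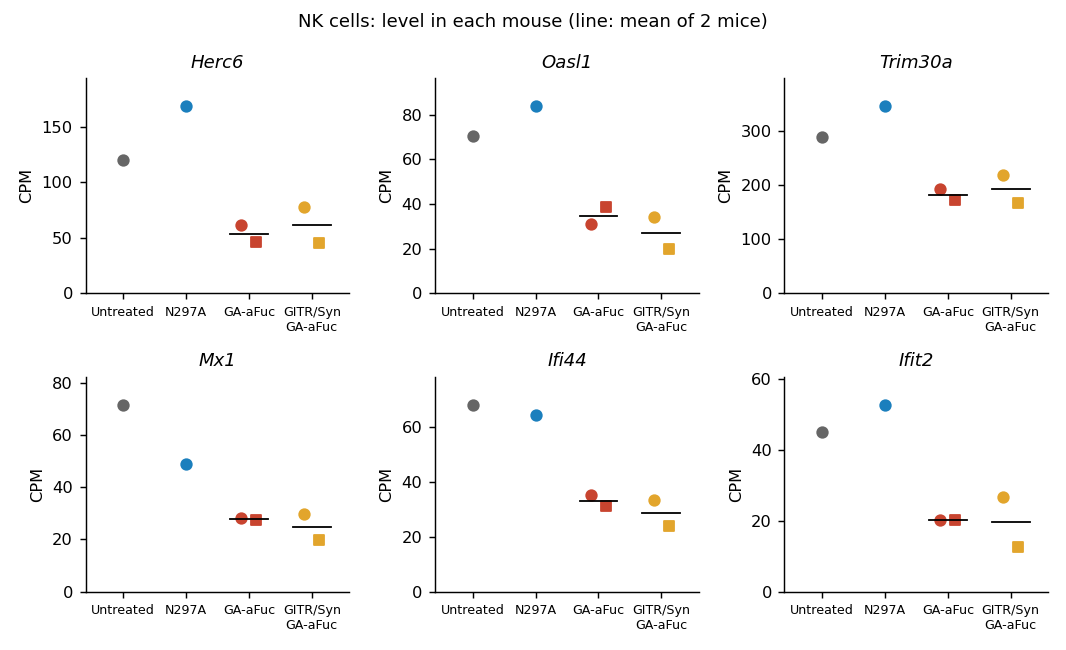
Levels (CPM) of Herc6, Oasl1, Trim30a, Mx1, Ifi44 and Ifit2 in NK cells of each mouse by treatment, with a line at the mean where a treatment has 2 mice. The 4 Fc-enhanced mice lie below the Untreated and N297A mice in all 6 panels, and Herc6 and Oasl1 passed the test.

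Split by treatment, none of the 43 genes passed in NK cells. GA-aFuc against N297A gave a median of -0.66 over the 43 genes, with 22 lower at an unadjusted p under 0.05 (4.72% of all genes in either direction). Herc6 led at -1.54 ± 0.26 with an adjusted p of 0.0510, and it passed in 8 of 14 alternative fits. It was followed by Trim30a at -0.87 ± 0.20 (0.233) and Oasl1 at -1.27 ± 0.32 (0.390). GA-aFuc against Untreated gave a median of -0.63, with 21 genes lower at an unadjusted p under 0.05 against 4.86% of all genes, led by Mx1 at -1.33 ± 0.32 (adjusted p = 0.441), Herc6 at -1.07 ± 0.27 (0.503) and Mx2 at -1.99 ± 0.54 (0.610). Mx2, the paralog of Mx1, stood at 29.1, 13.0, 7.03, 7.32, 15.7 and 7.32 CPM. GITR/Syn GA-aFuc against Untreated gave -0.56, with 16 lower at that threshold against 7.46% of all genes, led by Mx1 at -1.46 ± 0.32 (0.154), Oasl1 at -1.31 ± 0.33 (0.287) and Ifi44 at -1.17 ± 0.31 (0.360). Mx1 and Oasl1 each passed there in 3 of 14 alternative fits, and Ifi44 in none.

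The Fc-enhanced antibodies with and without agonist activity were also set against each other in NK cells. The median over the 43 genes was 0.02, and 1 gene had an unadjusted p under 0.05, against 4.41% of all genes. Over 15 alternative fits the median ran from -0.25 without GITR/Syn GA-aFuc 1 to 0.26 without GITR/Syn GA-aFuc 2. The 1 gene was Stat2, at 54.7, 65.8, 34.4, 23.8, 56.5 and 41.9 CPM, with 0.72 ± 0.28 and an adjusted p of 0.998. Next came Dhx58, a helicase that modulates RNA sensing, at 12.4, 17.9, 7.73, 10.98, 22.2 and 11.5 CPM (0.98 ± 0.49), and Usp18 at 0.36 ± 0.19. Herc6 differed by 0.18 ± 0.25 between these treatments. N297A against Untreated gave a median of 0.04 and no gene with an unadjusted p under 0.05. Its leading genes were Ms4a4c, a membrane protein of the MS4A family, at 116, 78.7, 80.1, 54.9, 77.8 and 80.6 CPM, Mx2, and Xaf1, a pro-apoptotic factor, at 67.1, 95.8, 64.7, 49.4, 54.6 and 50.2 CPM. Their log2 differences were -0.57 ± 0.27, -1.17 ± 0.57 and 0.50 ± 0.28.

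Of the genes around the programme, none of the receptor, signalling, induction or feedback genes passed in NK cells. In the pooled comparison Irf9, Ifnar1 and Ifnar2 changed by -0.29, -0.37 and -0.17 with adjusted p of 0.692, 0.579 and 0.874. Socs1, a feedback inhibitor, changed by -0.44 ± 0.14 (adjusted p = 0.338), Samhd1, a nucleotide hydrolase, by -0.58 ± 0.21 (0.374) and the RNA sensor gene Rigi by -0.34 ± 0.16 (0.523). None of 21 tested targets of interferon gamma passed, and their median was -0.42.

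The make-up of the NK class moved as well. The summed NK markers stood at 1412, 1477, 1095, 1076, 1178 and 1068 CPM, and 1 of the 5, Klra8, passed as lower in the pooled comparison, at 365, 293, 165, 168, 209 and 218 CPM. The summed T cell markers in these cells were 192, 201, 349, 201, 360.3 and 353 CPM. Most of each sum was Trbc2, at 147, 162, 219, 179, 231 and 292 CPM. Cd3g stood at 12.4, 15.4, 66.8, 1.83, 63.0 and 34.5 CPM, lowest in GA-aFuc 2. Summed macrophage markers were 431, 813, 392, 485, 768 and 294 CPM, highest in N297A 1 and GITR/Syn GA-aFuc 1 and lowest in GITR/Syn GA-aFuc 2. Herc6 was at 61.8 and 77.8 CPM in the 2 female mice, both given an Fc-enhanced antibody, and at 45.8 and 44.99 CPM in the male mice given one, against 120.0 and 168 CPM in the other 2 males. The part of sex and of these markers in the NK result was not tested.

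The NK class consists of 5 author clusters with different levels of the programme. Clusters 20, 48 and 58 made up 43.8, 40.0, 49.6, 44.9, 52.7 and 60.8% of the NK cells of each mouse. In them alone Herc6 stood at 116, 111, 45.9, 29.9, 66.1 and 37.5 CPM, with -1.27 and an adjusted p of 0.00580, and Oasl1 at 54.9, 29.2, 23.4, 29.9, 28.3 and 15.5 CPM, with -0.72 and 0.577. In clusters 19 and 26 Herc6 stood at 129, 283, 110.1, 78.6, 121 and 76.7 CPM (-0.92, adjusted p = 0.948) and Oasl1 at 106, 193, 53.6, 56.2, 56.0 and 38.4 CPM (-1.44, 0.465). Herc6 was thus lower in all 4 Fc-enhanced mice in either set, while Oasl1 overlapped in the first. This division was chosen after the values were known, and some of its sums rest on 22 to 29 cells.

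Monocytes were highest in the N297A mouse. Its level was the highest of the 6 mice for 36 of the 46 genes, against 19.1% of all genes, and the summed level was 17694, 20626, 16066, 15319, 14911 and 18258 CPM. The high clusters 49, 21 and 27, which were formed from these genes among others, held 16.6, 18.0, 12.6, 15.8, 14.9 and 16.6% of the monocytes, also most in the N297A mouse. Taken singly, only cluster 21 was largest there, at 9.09%. Cluster 49 held 3.39% there against 3.41% in GITR/Syn GA-aFuc 2, and cluster 27 5.55% against 6.24% in the Untreated mouse. In the annotation of the other library these clusters held 18.5 and 19.4% in the N297A mice and 19.6 and 16.5% in the Untreated mice. All 4 Fc-enhanced mice lay below both other mice for 18 of the 46 genes, or 39.1%, against 10.3% of all genes. In GA-aFuc against N297A all 46 genes were lower, with a median of -0.26, and 15 had an unadjusted p under 0.05 (9.04% of all genes in either direction). In N297A against Untreated 43 of the 46 were higher, with a median of 0.17 and none with an unadjusted p under 0.05. The medians over all genes were 0.023 and 0.0026. Without the high clusters the medians of the 46 genes were -0.23 and 0.059, an alternative chosen after the values were seen. In the pooled comparison the median was -0.20 and 12 genes were lower at an unadjusted p under 0.05 (8.54% of all genes). In N297A against Untreated the leading genes were Ifit3b at 0.54 ± 0.26, Cmpk2 at 0.68 ± 0.36 and Ifi27l2a at 0.44 ± 0.27.

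The IFIT genes led in monocytes. Ifit3b stood at 68.8, 98.4, 51.1, 45.05, 47.5 and 61.9 CPM, with -1.09 ± 0.22 and an adjusted p of 0.0612 for GA-aFuc against N297A, and -0.71 ± 0.16 and 0.106 in the pooled comparison. It passed in 6 of 14 and 5 of 13 alternative fits. Ifit3 was at 310.1, 427, 218, 196, 176 and 300.4 CPM, with -1.10 ± 0.29 (0.146) and -0.74 ± 0.20 (0.209), and passed in 4 alternative fits of each. The N297A mouse was the highest and the 4 Fc-enhanced mice the lowest for both genes, although GITR/Syn GA-aFuc 2 came within 10 CPM of the Untreated mouse for Ifit3. Ifit3 and Ifit3b share 47.2% of the 50-base stretches at the end of Ifit3, so reads may have been split between them. Ifit1 stood at 210.0, 282, 153, 169, 137 and 224 CPM, and Ifit2 at 291, 342, 233, 229, 232 and 310.1 CPM, and in both GITR/Syn GA-aFuc 2 lay above the Untreated mouse.

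ISG15 and its enzymes differed among themselves. Isg15 was at 997, 1046, 851, 729, 686 and 963 CPM, and Usp18 at 159.8, 193, 135, 137, 123 and 158 CPM. Herc6, lower in NK cells, stood in monocytes at 181, 178, 178, 190.1, 162 and 181 CPM. Of the OAS genes, Oas1a was highest in the N297A mouse, at 89.98, 104, 82.6, 68.9, 82.7 and 90.07 CPM. Oas2 stood at 65.1, 67.5, 63.8, 63.9, 67.1 and 66.2 CPM, Oasl1 at 251, 284, 279, 239, 254 and 288 CPM, Oasl2 at 393, 397, 338, 357, 346 and 396 CPM, and Oas3 at 146, 147, 141, 141, 137 and 145 CPM. The groups overlapped for Herc6 and for these OAS genes except Oas3, whose 4 Fc-enhanced mice lay below both others. Eif2ak2, the kinase PKR that halts translation on binding double-stranded RNA, was at 192, 200.4, 205, 178, 206 and 199.8 CPM. Samd9l, a restriction factor against poxviruses, was at 163, 185, 161, 164, 138 and 177 CPM, and Pnpt1, a mitochondrial exoribonuclease, at 35.6, 44.1, 29.2, 33.04, 32.6 and 34.7 CPM. None of these 3 genes passed the test in any class or comparison.

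Among the effectors Bst2 stood at 1008, 1112, 913, 680.0, 715 and 1104 CPM, with GITR/Syn GA-aFuc 2 beside the N297A mouse. Isg20 was at 157, 201, 106, 107, 93.9 and 155 CPM, with -0.66 ± 0.20 and an adjusted p of 0.275 in the pooled comparison. Trim30a at 432, 433, 401, 385, 426 and 404 CPM and Zbp1, a sensor of Z-form nucleic acid, at 439, 444, 420.0, 387, 347 and 423 CPM differed little. Rsad2 and Cmpk2, the genes that marked the high clusters, had another order, with GA-aFuc 2 the highest. Rsad2 was at 515, 769, 525, 833, 433 and 773 CPM, and Cmpk2 at 50.7, 80.2, 50.6, 91.0, 53.8 and 71.9 CPM.

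Of the sensors and factors, Irf7 was at 767, 853, 673, 593, 607 and 721 CPM, with all 4 Fc-enhanced mice below both others. Ifih1, the RNA sensor MDA5, was at 233, 257, 249, 234, 269 and 227 CPM, and Stat2 at 185, 182, 185, 164, 196 and 180.0 CPM, both overlapping. The PARP and DTX3L genes, whose products modify proteins with ADP-ribose and ubiquitin, did not separate: Parp14 was at 444, 444, 452, 396, 429 and 471 CPM, Parp9 at 165, 161, 168, 163, 159 and 156 CPM, and Dtx3l at 167, 167, 163, 160.0, 167 and 148 CPM. Of the PYHIN genes, Ifi204 was at 679, 719, 619.8, 700.2, 624.8 and 663 CPM, Ifi209 at 352, 396, 282, 311, 270.3 and 344 CPM, and Ifi211 at 365, 376, 342, 363, 324 and 357 CPM. For Ifi209 and Ifi211 the 4 Fc-enhanced mice were below both others.

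The remaining genes followed the IFIT order in part. Ifi27l2a stood at 3808, 5105, 3613, 3339, 3389 and 4174 CPM, Ms4a4c at 1133, 1336, 873, 815, 787 and 1067 CPM, and Epsti1, an epithelial-stromal interaction protein, at 384, 426, 334, 305, 339 and 384 CPM. Phf11b, a PHD finger protein, was at 288, 375, 228, 183, 230.5 and 301 CPM, with -0.92 ± 0.24 and an adjusted p of 0.143 for GA-aFuc against N297A. Its relative Phf11d was at 171, 211, 129.8, 111, 132 and 177 CPM. GITR/Syn GA-aFuc 2 lay above the Untreated mouse for Ifi27l2a, Phf11b and Phf11d. GITR/Syn GA-aFuc against GA-aFuc gave a median of 0.08 over the 46 genes (-0.081 without GITR/Syn GA-aFuc 2) and no gene with an unadjusted p under 0.05, against 5.06% of all genes, led by Phf11b at 0.39 ± 0.20, Phf11d at 0.38 ± 0.20 and Ifit2 at 0.25 ± 0.19.

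GA-aFuc against Untreated in monocytes gave a median of -0.20, with 2 genes lower at an unadjusted p under 0.05 against 6.57% of all genes, Ifit3b at -0.55 ± 0.23 and Phf11d at -0.53 ± 0.24 (adjusted p = 0.722 and 0.746). GITR/Syn GA-aFuc against Untreated gave -0.11 (0.014 without GITR/Syn GA-aFuc 1), with Ifit3b, Ifit3 and Ms4a4c leading at -0.34 ± 0.23, -0.39 ± 0.29 and -0.30 ± 0.24. With 1 mouse left out, the number of passing genes in GA-aFuc against N297A, over all 5 classes, was 5 without GA-aFuc 1, 2 without GA-aFuc 2, 6 without GITR/Syn GA-aFuc 1 and 13 without GITR/Syn GA-aFuc 2.

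Among 22 targets of interferon gamma in monocytes, 3 rose and none fell in GA-aFuc against N297A, where 0.562% of all genes rose: Cd274, the gene for PD-L1, by 1.48 (adjusted p = 0.0101), Gbp4, a guanylate-binding GTPase, by 1.23 (0.0228) and Iigp1, a GTPase against vacuolar pathogens, by 1.16 (0.0338). Cd274 stood at 357, 178, 533, 496, 429 and 443 CPM and Iigp1 at 746, 264, 659, 568.1, 591 and 582 CPM, lowest in the N297A mouse. The median over the 22 was 0.25, and not all were low there: Cxcl10 stood at 999, 1003, 902, 772, 927 and 1302 CPM and Psmb8, an immunoproteasome subunit, at 914, 834, 778, 674, 674 and 848 CPM. Irf9 was at 90.2, 90.6, 83.6, 82.8, 82.3 and 79.3 CPM. Over the 39 monocyte and macrophage clusters the summed levels of the interferon-stimulated genes and of the gamma targets had a Pearson r of 0.158 on the log2 scale, points that share the library. Neutrophil markers stood at 359 CPM in the monocytes of GA-aFuc 2 against 47.7 to 86.7 CPM in the other mice, and their part was not tested.

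Macrophages were highest in the Untreated mouse, which led for 33 of the 46 genes against 15.2% of all genes. The summed level was 13818, 12050, 13013, 10419, 11718 and 12495 CPM. Both Fc-enhanced treatments were lower than Untreated for all 46 genes, with medians of -0.29 and -0.24, and N297A was lower for 43, with -0.34, so in these medians the Untreated mouse was above every antibody treatment. At an unadjusted p under 0.05 there were 5, 1 and no genes in these comparisons, against 3.04, 1.29 and 2.07% of all genes. The pooled median was -0.08 with 2 such genes, that of GA-aFuc against N297A 0.05 with 1, and that of GITR/Syn GA-aFuc against GA-aFuc 0.04 with none, against 3.33, 3.23 and 2.52% of all genes. The second of these was -0.095 without GA-aFuc 1.

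Ifit3 in macrophages stood at 283, 204, 207, 139, 162 and 219.9 CPM (GA-aFuc against Untreated -0.77 ± 0.31, adjusted p = 0.9998), Ifit3b at 58.5, 44.1, 44.1, 29.7, 38.2 and 47.9 CPM (-0.72 ± 0.28) and Ifit1 at 136, 96.1, 103, 90.5, 87.7 and 104 CPM (-0.55 ± 0.23). Ifit2 was at 195, 130.5, 158, 121, 153 and 144 CPM. Here the N297A mouse was among the others, not above them as in monocytes. All 4 Fc-enhanced mice lay below both others for 5 of the 46 genes, or 10.9%, near the 8.42% of all genes. Isg20, at 51.5, 56.3, 42.1, 35.3, 32.7 and 41.99 CPM, and Phf11b, at 269.7, 257, 216, 166, 211 and 233 CPM, were among the 5 (pooled -0.56 ± 0.18 and -0.42 ± 0.17, adjusted p = 0.930 for both). Ifit1 also led GITR/Syn GA-aFuc against Untreated at -0.57 ± 0.23, and the differences between the Fc-enhanced treatments ran from -0.13 to 0.22.

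Untreated 1, GA-aFuc 1 and GITR/Syn GA-aFuc 1 all lay above the other 3 mice for 19 of the 46 genes in macrophages, against 8.33% of all genes, an order chosen after the values were seen. The 2 female mice are among these 3, and the part of sex was not tested. Parp14 stood at 324, 209.7, 315, 222, 309 and 263 CPM, Stat2 at 137, 96.1, 152, 126, 158 and 127 CPM, and Ifi205 at 55.0, 35.2, 56.4, 38.3, 45.9 and 41.5 CPM. In N297A against Untreated Parp14 changed by -0.62 ± 0.30, Ifi205 by -0.64 ± 0.30 and Ifit2 by -0.57 ± 0.27, and Stat2 by 0.47 ± 0.23 in GA-aFuc against N297A, none of which passed. The same 3 mice were highest for the summed targets of interferon gamma, at 24689.6, 10471, 17839, 12759.8, 21834.5 and 14610.0 CPM. The mouse GA-aFuc 2 had 17.9% of its macrophages in cluster 9 against 1.48 to 6.49% in the others, and monocyte markers at 810 CPM against 141 to 278. Without cluster 9 the summed level was 13919, 12220, 13156, 10875, 11779 and 12755 CPM, with GA-aFuc 2 still the lowest.

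The difference between monocytes and macrophages was tested directly with the mouse as a block. None of the 46 genes passed in any of the 6 comparisons, where 0.00120% of all tests passed. For N297A against Untreated the change in monocytes minus that in macrophages was positive for 46 of 46 genes, with a median of 0.46, and 26 had an unadjusted p under 0.05 against 4.18% of all genes. For GA-aFuc against N297A it was negative for all 46, with a median of -0.36 and 21 such genes against 5.76%. In the other 4 comparisons 1, 1, 0 and 2 genes had an unadjusted p under 0.05, against 3.33, 3.59, 2.87 and 4.78% of all genes. Both results above rest on the same N297A mouse.

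CD8 T cells also had their highest values in the N297A mouse, for 35 of the 44 genes tested against 19.3% of all genes; Oas2 and Ifi205 had too few counts. The summed level was 8091, 9520, 7827, 6684, 7314 and 5942 CPM on 63 to 146 cells. The make-up of the class moved as well. The summed T cell markers were 7528, 5290, 6331, 6145, 5755 and 5495 CPM, lowest in the N297A mouse, and Ccr7, a homing receptor of naive T cells and mature dendritic cells, was highest there, at 7.29, 76.1, 20.2, 12.5, 31.5 and 10.1 CPM. Cluster 23 held 13.6, 25.4, 11.6, 17.5, 25.8 and 17.6% of the CD8 T cells. Within that cluster the summed level of the interferon-stimulated genes was 10867, 16490, 10896, 10967, 9024 and 10629 CPM, again highest in the N297A mouse. That mouse was also highest in cluster 16, at 11525 CPM, but not in the other CD8 clusters. It stood below the Untreated mouse in cluster 33 (5746 against 6925 CPM) and cluster 44 (13560 against 13695 CPM). In cluster 38 it was the lowest of all mice, at 4939 CPM. GA-aFuc against N297A gave a median of -0.65, with 16 genes lower at an unadjusted p under 0.05 against 4.83% of all genes, and N297A against Untreated gave 0.46, with 8 genes higher against 3.38%. The pooled median was -0.35 with 12 such genes, all lower, against 3.99%.

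Slfn5, a Schlafen family protein, stood at 25.5, 98.6, 27.5, 21.8, 41.4 and 50.7 CPM, with -1.94 ± 0.34 (adjusted p = 0.256) for GA-aFuc against N297A and 1.92 ± 0.39 (0.871) for N297A against Untreated. Ifih1 was at 70.0, 128, 50.6, 37.4, 56.3 and 60.9 CPM (-1.48 ± 0.30, adjusted p = 0.319), and Ifit3 at 107, 215, 93.3, 63.8, 103 and 77.8 CPM (-1.39 ± 0.28, 0.321). In these genes the N297A value was the highest. For Slfn5 the Untreated mouse lay among the Fc-enhanced mice. For Ifih1 and Ifit3 it lay above all of them, for Ifit3 narrowly, at 107 against at most 103 CPM. The N297A mouse was also highest for Ifit3b at 16.04, 57.1, 19.5, 20.2, 19.9 and 19.2 CPM and for Oasl2 at 14.6, 58.8, 20.96, 45.1, 38.1 and 33.8 CPM (N297A against Untreated 1.79 ± 0.43 and 1.97 ± 0.53).

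Other CD8 genes differed between the Fc-enhanced treatments or from Untreated without passing. Mx1 was at 44.5, 76.1, 40.5, 29.6, 54.7 and 86.8 CPM and Mx2 at 24.1, 36.3, 12.3, 15.6, 26.5 and 30.4 CPM, higher in both GITR/Syn GA-aFuc than in both GA-aFuc mice (0.99 ± 0.31 and 1.08 ± 0.36). Ifi204 went the other way, at 37.9, 32.9, 36.1, 62.3, 29.8 and 14.7 CPM (-1.15 ± 0.39). The adjusted p of all 3 was 0.9995, and the median over the 44 genes was 0.07, with 6 genes at an unadjusted p under 0.05 against 3.63% of all genes. Ifi27l2a was at 3756, 3358, 3510, 2912, 2837 and 1956 CPM (GITR/Syn GA-aFuc against Untreated -0.67 ± 0.20, adjusted p = 0.999), Oas1a at 29.9, 31.1, 16.6, 17.1, 18.2 and 7.89 CPM (-1.28 ± 0.48), and Phf11d at 16.8, 6.92, 2.89, 4.67, 11.6 and 3.38 CPM (GA-aFuc against Untreated -2.21 ± 0.89). The median of GA-aFuc against Untreated was -0.10 with 2 genes at an unadjusted p under 0.05, and that of GITR/Syn GA-aFuc against Untreated -0.10 with 4, against 2.45 and 3.87% of all genes.

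NK cells and CD8 T cells were compared directly, again with the mouse as a block, and 0.103% of all tests in the 6 comparisons passed. In GITR/Syn GA-aFuc against Untreated, Oasl1 and Mx1 passed, with the change in NK cells below that in CD8 T cells by 2.46 (SE 0.55) and 2.11 (SE 0.47) on the log2 scale and adjusted p of 0.0490 and 0.0471. Oasl1 in CD8 T cells was at 11.7, 19.03, 20.2, 12.5, 33.1 and 19.2 CPM, lowest in the Untreated mouse. Both calls were lost with a stricter filter on counts, without N297A 1 and without GITR/Syn GA-aFuc 2, when none of the genes passed, and 4 passed without GITR/Syn GA-aFuc 1. Herc6 in the pooled comparison differed between these classes by -0.88 ± 0.25 with an adjusted p of 0.336, so its change in NK cells was not shown to be particular to them. In CD8 T cells Herc6 stood at 124, 197, 121, 114, 123 and 125 CPM.

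In dendritic cells all 4 Fc-enhanced mice were below both others for 19 of the 46 genes, against 7.02% of all genes. The summed level was 12139, 13030, 11441, 11219, 9949 and 11194 CPM on 47 to 83 cells. The pooled median was -0.21, and 13 genes were lower and 1 higher at an unadjusted p under 0.05, against 6.14% of all genes. Ifit3b stood at 37.9, 60.6, 25.8, 20.8, 35.0 and 35.5 CPM (pooled -0.75 ± 0.23, adjusted p = 0.682; GA-aFuc against N297A -1.38 ± 0.34, 0.322). Ifi213, a PYHIN protein, was at 137, 168, 87.7, 96.0, 99.2 and 131 CPM (pooled -0.56 ± 0.18, 0.682). The higher gene was Rsad2, at 78.0, 99.3, 136, 110.4, 152 and 137 CPM (0.59 ± 0.17, 0.640), opposite in direction to most of the list. The medians were -0.24 for GA-aFuc against Untreated, -0.20 for GA-aFuc against N297A, -0.25 for GITR/Syn GA-aFuc against Untreated, -0.02 between the Fc-enhanced treatments and -0.04 for N297A against Untreated, with 9, 7, 5, 3 and 3 genes at an unadjusted p under 0.05. The shares of all genes were 6.97, 6.97, 4.72, 7.16 and 5.22%. The median between the Fc-enhanced treatments changed sign in 6 of 15 alternative fits.

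Further dendritic genes had their own orders. Ifi205 was highest in the Untreated mouse, at 536, 317, 384, 342, 473 and 365 CPM (N297A against Untreated -0.77 ± 0.22, adjusted p = 0.596; GA-aFuc against Untreated -0.59 ± 0.18, 0.539). Ms4a4c, at 631, 739, 689.9, 749, 467 and 521 CPM, was lower in both GITR/Syn GA-aFuc mice than in all others (against GA-aFuc -0.52 ± 0.13, adjusted p = 0.240), while Oasl1 was higher there, at 176, 146, 170.3, 157, 192 and 256 CPM (0.47 ± 0.20). Isg20 at 149, 234, 158, 133, 153 and 146 CPM and Epsti1 at 293, 439, 366, 411, 368 and 302 CPM were highest in the N297A mouse. Slfn5 at 436, 381, 332, 353, 316 and 335 CPM, Zbp1 at 328, 323, 294, 256, 236 and 245 CPM, Ifi209 at 239, 234, 169, 160.0, 171 and 199 CPM and Mx2 at 53.9, 52.9, 32.7, 27.2, 47.6 and 44.1 CPM had no overlap between the 4 Fc-enhanced mice and the others. The class mixes 4 dendritic types. The pDC markers Siglech, Ccr9, Tcf4 and Ly6d were lowest in GITR/Syn GA-aFuc 2, at 14.0, 9.68, 202 and 0 CPM. In GA-aFuc 2 they stood at 136, 109, 485 and 187 CPM.

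**Figure D5:**
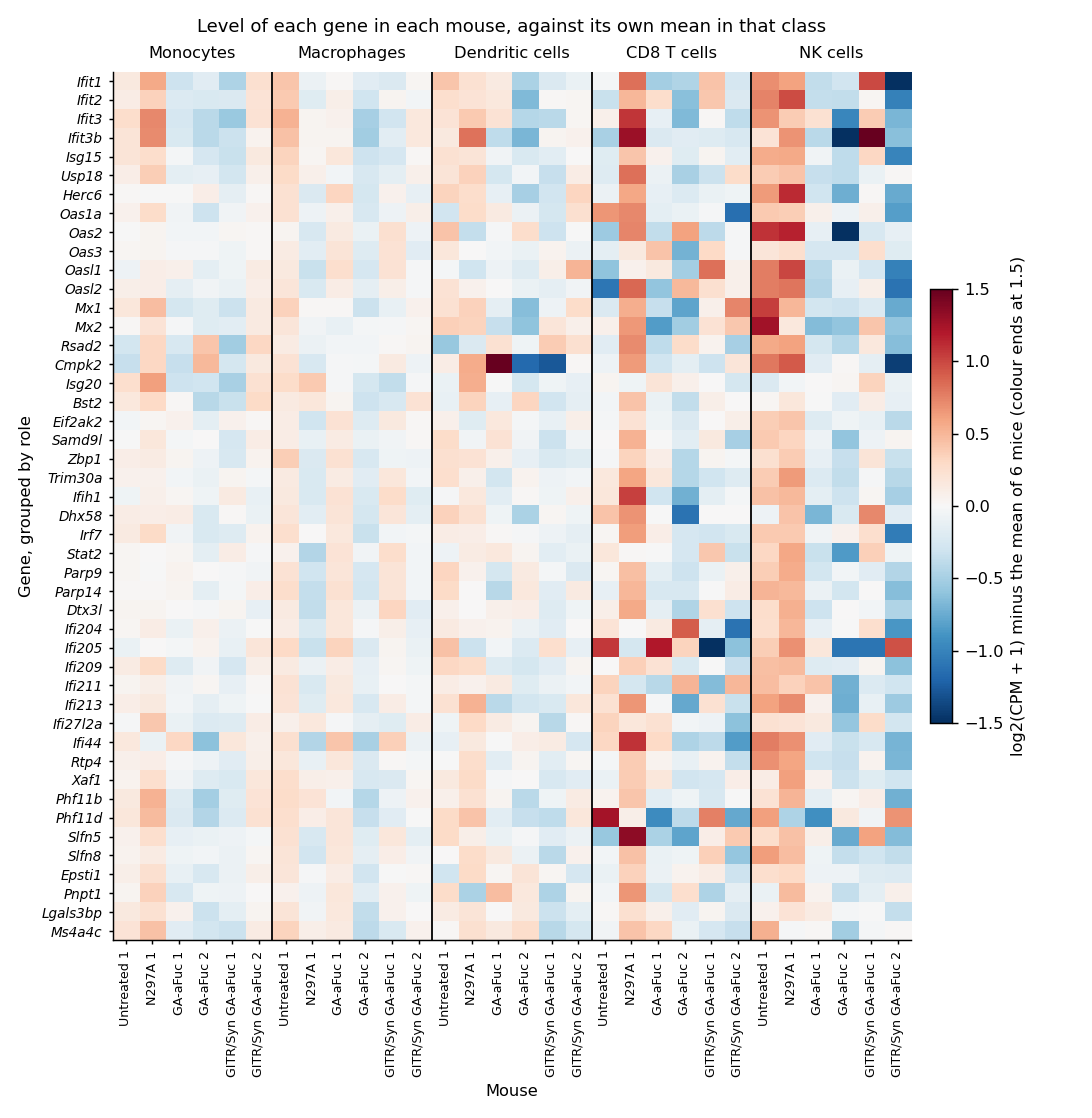
Heat map of log2(CPM + 1) minus the mean of the 6 mice for the 46 genes in 5 cell classes, with colour ends at ±1.5. NK cells are high in the Untreated and N297A mice, monocytes and CD8 T cells in the N297A mouse, and macrophages in the Untreated mouse.

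Outside the list, the genes whose level followed that of the 46 genes most closely over the 30 sums of mouse and class, each centred within its class, were sought among 10846 genes. Sp100, a nuclear body protein, was closest with a Pearson r of 0.88, followed by Ifi203 at 0.87, Ifi206 at 0.85, Mndal at 0.84, A930037H05Rik at 0.83, Zup1 at 0.82, Ifi208 and Ms4a6c at 0.81, Trim30d at 0.79 and Irf2 at 0.78. The points share mice and a library, and Ifi203, Ifi206, Ifi208, Mndal and Trim30d are relatives of listed genes whose reads may overlap with theirs. Of the 46 genes, Ifi211 shares 81.0% of its end stretches with another gene, Oas1a 58.3%, Phf11b 47.6%, Ifi205 40.5%, Ifi209 39.5%, Ifit3b 21.8%, Herc6 17.2% and Trim30a 13.5%, and their values are uncertain to that extent. Oasl1 shares none.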

How the data were processed

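Gene expression was measured with a 3′ droplet assay in hashed CD45+ cells, per the labels' protocols. The deposited values are UMI counts per feature and barcode, made by the authors with Cell Ranger 9.0.0, per the file headers, and the submitters' processing notes name the builds GRCh38 and GRCm39. Human features took 0.591% of the UMIs. Cell types, clusters, treatments and cells kept are those of the deposited annotation, and 5815 further barcodes with at least 500 UMIs were not used. Mice were separated by runs of rising barcodes in that annotation and checked against the hashtags. No doublet caller was run here. The other library's matrix was not analysed here.

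Counts were summed per mouse and class, with at least 10 cells in each, and fitted with edgeR 4.0.16 in R 4.3.3 (filterByExpr, TMM, quasi-likelihood F test), 6 mice and 4 treatments per class with 2 residual degrees of freedom. P-values were adjusted by Benjamini-Hochberg over all genes of a class and comparison. The standard error is the log2 fold change divided by the root of F. DESeq2 1.42.0 was an alternative. Scripts were tested on simulated data. Gene values are given for genes past the threshold, the 3 most abundant per role and the 3 with the smallest p per class and comparison; Ifi27l2a, Bst2, Isg20, Isg15, Ifit1, Ifit2, Oasl2, Slfn8 and Rtp4 in NK cells, Ifit1 and Rsad2 in monocytes and Herc6 and Oasl1 in CD8 T cells were added after their values were seen. Genes and lists were chosen with earlier results of these data known. P-values measure the spread between mice of the 2 Fc-enhanced treatments. Each of these pairs is 1 female and 1 male mouse, so that spread includes any difference between the sexes. The Untreated and the N297A mouse were both male. The values of a signalling gene outside the members are not reported here.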

Additional observations from a re-analysis of the deposited data

Results flagged for a closer look

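In dendritic cells the mouse GITR/Syn GA-aFuc 1 stood apart from the other 3 mice given an Fc-enhanced antibody: its summed level of the interferon-stimulated genes was 9949 CPM, against 11194 to 11441 CPM. Its gap was 0.834 of the range of the 4 mice, just above Dixon's 95% critical value of 0.829. There were 16 such groups, and chance marks about 1 in 20. GITR/Syn GA-aFuc 1 had 83 dendritic cells, the most of any mouse.

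Oasl1 and Mx1 differed between NK cells and CD8 T cells in GITR/Syn GA-aFuc against Untreated, by a test of the difference itself. The difference of log2 fold changes was -2.46 for Oasl1 (adjusted p = 0.0490) and -2.11 for Mx1 (adjusted p = 0.0471). Both groups have 2 and 1 mice, and the CD8 T cell level of Oasl1 in the Untreated mouse was 11.7 CPM. The part of macrophage RNA in the CD8 T cell sums was not tested.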

How the results depend on the processing

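No paired analysis was possible because no label or number ties a mouse of 1 treatment to a mouse of another. The alternatives covered scaling, filters, cells and mice. Of 160 calls summed over all alternatives, classes and comparisons, 159 were lower. The 1 higher call was Slfn5 in CD8 T cells, N297A against Untreated, no filter. The calls repeat the same genes in refits of the same mice, so they are not independent. The share of all genes that passed is not given for any alternative, fits without 1 mouse included. A larger number of calls is therefore not shown to be particular to the interferon-stimulated genes. Without 1 mouse of an Fc-enhanced treatment, or with only the treatments compared, the spread comes from a single pair of mice. Without a filter on low counts the passing genes numbered 1 for GA-aFuc against Untreated, 15 for GA-aFuc against N297A, 1 for GITR/Syn GA-aFuc against GA-aFuc, 2 for GITR/Syn GA-aFuc against Untreated, 1 for N297A against Untreated and 20 in the pooled comparison. With only the treatments compared they were 16 for GA-aFuc against N297A and 4 for GITR/Syn GA-aFuc against Untreated. GA-aFuc against N297A gave 1 with RLE size factors, with mouse features only, without the 1% of cells with most UMIs, without clusters led by another class and without the 4 highest clusters. Equal cells per mouse gave 1 for GITR/Syn GA-aFuc against Untreated and a median of -0.91 in its NK cells, and DESeq2 gave 1 in the pooled comparison.

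Leaving out 1 mouse gave 0 to 1 passing genes for GA-aFuc against Untreated, 0 to 13 for GA-aFuc against N297A, 0 to 2 for both GITR/Syn GA-aFuc against GA-aFuc and GITR/Syn GA-aFuc against Untreated, 0 to 1 for N297A against Untreated and 6 to 11 for the pooled comparison. Medians then ran from -0.50 to -0.12 in macrophages and -0.24 to -0.052 in CD8 T cells for GA-aFuc against Untreated. For GITR/Syn GA-aFuc against GA-aFuc they ran from -0.14 to 0.20 in macrophages and -0.041 to 0.17 in CD8 T cells. Over all alternatives, medians of other sign arose for this comparison in NK cells (-0.25 to 0.26), dendritic cells (-0.11 to 0.075) and monocytes (-0.081 to 0.22), for GITR/Syn GA-aFuc against Untreated in monocytes (-0.24 to 0.014) and for GA-aFuc against N297A in macrophages (-0.095 to 0.20). Differences between NK cells and CD8 T cells gave 0 to 4 passing genes for GITR/Syn GA-aFuc against Untreated (0 with the stricter filter), 0 to 4 in the pooled comparison and 0 to 1 for GITR/Syn GA-aFuc against GA-aFuc; monocytes minus macrophages gave 0 to 2 for GA-aFuc against N297A. Comparisons with the Untreated or the N297A mouse gave no value without it.

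For GITR/Syn GA-aFuc against GA-aFuc 3 genes changed sign: Ifit3b in macrophages (-0.031 without GA-aFuc 2, -0.018 without GITR/Syn GA-aFuc 2, up to 0.52 without GA-aFuc 1), Ifi205 in macrophages (-0.38 to 0.17) and Ifit2 in monocytes (-0.032 without GITR/Syn GA-aFuc 2). The log2 ratio of the monocyte level to that of another type moved from 0.49 to 2.37 for pDC with the mean of log2(CPM + 1), and to 1.09 without the 3 most abundant genes. In the same way it moved to 1.03 for CD4 T cells and 1.78 for CD8 T cells with the mean log2, and to 1.503 for CD8 T cells and 1.992 for NK cells without the 3 genes. Allowing 1 mismatch raised the promoter share to 94.3%. The cause of these changes was not tested. Depth limits CD8 T, NK and dendritic sums, which rest on as few as 47 cells.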
